A study of Ovis aries with 6 samples.

Results

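Respiratory chain genes of the mitochondrial and nuclear genomes were followed in sheep (Ovis aries) ovary. Members were taken by symbol from a table of 14480 genes, and 62 matched: 13 genes of the mitochondrial genome (CYTB, ATP6, ATP8, COX1 to COX3, ND1 to ND6 and ND4L) and 49 nuclear genes, of which 37 had NDUF symbols and 12 had ATP5 symbols. No row matched the nuclear patterns for complex III (UQCR genes and CYC1) or complex IV (COX4 to COX8 genes), so the nuclear members stand almost only for complex I and complex V. Polyadenylated RNA was sequenced from 3 ovary libraries of Hu sheep, a prolific breed of China, and 3 of Mongolian sheep, which mostly bear single lambs. The series' design text places both in estrus, and the labels give no treatment. The labels give no age and do not say whether replicates were separate ewes or pools, so p-values measure only the spread between these libraries. The series title speaks of exosomes, whereas each sample is labelled as ovary.

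The respiratory chain passes electrons from NADH and succinate to oxygen through complexes I to IV of the inner mitochondrial membrane, and complex V, the ATP synthase, uses the resulting proton gradient to make ATP. Most subunits are encoded in the nucleus and imported. Mitochondrial DNA encodes the proton-pumping heart of complex I, cytochrome b and the catalytic centre of complex IV. It also encodes a pair of membrane subunits of complex V, and is copied into long transcripts of both strands that are cut into mRNAs. In the ovary, mitochondria supply ATP to the oocyte and also hold the first enzyme of steroid synthesis.

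Levels are FPKM (read fragments scaled to transcript length and library size), so levels of different genes can be compared per length. The libraries differed in how many genes had a value above 0, which was 6500, 7971 and 13342 in Hu 1, Hu 2 and Hu 3 and between 10547 and 11463 in the Mongolian libraries. A pair of assembled genes without a symbol held between 53.3% and 79.7% of each library's summed FPKM. The tissue label was checked by marker genes. Stromal markers (5 of 5 listed) summed to between 665 and 860.1 FPKM in Hu and between 635 and 746 FPKM in Mongolian libraries, and smooth muscle markers (4 of 4) to between 512 and 1204 FPKM in Hu and between 613 and 822 FPKM in Mongolian. Of the granulosa markers (3 of 6 listed), INHA and INHBA were above 0 everywhere, FSHR stood at 0, 0.946 and 0.585 FPKM in Hu, against 0, 0 and 1.95 FPKM in Mongolian libraries, and AMH, CYP19A1 and FOXL2 were not listed by symbol. Of the oocyte markers (2 of 5 listed), GDF9 and ZP3 were at 0 in at least 4 libraries and below 1 FPKM elsewhere. Steroidogenic and luteal markers (6 of 6) summed to between 21.4 and 113 FPKM in Hu and between 11.2 and 377 FPKM in Mongolian. Endothelial markers (4 of 4) summed to at most 18.8 FPKM in Hu and 8.004 FPKM in Mongolian. Blood and immune markers (3 of 4, without HBB) summed to at most 19.3 FPKM in Hu and 33.0 FPKM in Mongolian. Markers of mitochondria-rich muscle (2 of 5) summed to at most 1.19 FPKM in Hu and 0.0911 FPKM in Mongolian. MB, COX6A2 and COX7A1 of that set were not listed by symbol. In such bulk samples, fewer cells of a type and less RNA per cell cannot be told apart.

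Most mitochondrial genes exceeded every nuclear member. This held for 8, 12 and 11 of the 13 in Hu 1, Hu 2 and Hu 3. It held for 10, 12 and 11 in Mongolian 1, Mongolian 2 and Mongolian 3. The level of the mitochondrial genes varied more between libraries of a breed than between breeds. Their summed level was 1669, 4210 and 6547 FPKM in Hu 1, Hu 2 and Hu 3 and 2524, 3868 and 1678 FPKM in Mongolian 1, Mongolian 2 and Mongolian 3. Hu 3 was highest and Hu 1 lowest, so the Hu libraries spanned the whole Mongolian range. The sum averaged 4142 ± 2440 FPKM in Hu and 2690 ± 1104 FPKM in Mongolian libraries (SD, n = 3 per breed), so the breed means were closer than the Hu libraries were to each other. Outside the pair of dominant assembled genes, mitochondrial genes made up 1.84%, 4.05% and 3.11% of the summed FPKM in Hu 1, Hu 2 and Hu 3 and 2.06%, 3.04% and 1.46% in Mongolian 1, Mongolian 2 and Mongolian 3.

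Complex I receives its membrane core from 7 mitochondrial genes. ND4, which encodes a proton-pumping subunit, was the most abundant of them at 266, 471 and 974 FPKM in Hu, against 423, 519 and 219 FPKM in Mongolian libraries. ND4L, a small subunit encoded next to ND4, stood at 76.6, 252 and 603 FPKM in Hu, against 207, 292 and 80.6 FPKM in Mongolian libraries. Both genes were highest in Hu 3 and lowest in Hu 1 and Mongolian 3. ND1, the subunit at the quinone entry, averaged 175 ± 76.0 FPKM in Hu and 153 ± 53.5 FPKM in Mongolian. ND2, a second antiporter-like subunit, averaged 142 ± 125 FPKM in Hu and 114 ± 68.1 FPKM in Mongolian. For both, the breed averages differed by less than the SD of either breed. ND3, the shortest of the group after ND4L, averaged 61.2 ± 32.7 FPKM in Hu and 41.2 ± 28.3 FPKM in Mongolian.

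ND5, the largest proton-pumping subunit of complex I, stood apart from the other 12 genes. It was listed at 0.0394, 0.0391 and 56.2 FPKM in Hu 1, Hu 2 and Hu 3 and at 0.0254, 0.0450 and 1.86 FPKM in the Mongolian libraries. Thus 4 libraries, from both breeds, had ND5 below 0.1 FPKM, while its neighbour ND4 was above 200 FPKM in all 6. ND6, which is encoded on the opposite strand and overlaps the end of ND5 in mammals, stood at 38.8, 125 and 324 FPKM in Hu, against 129.9, 96.7 and 75.004 FPKM in Mongolian libraries. The ratio of ND5 to ND6 was 0.174 in Hu 3 and at most 0.0248 in any other library. The labels do not say that counting used strand, and reads from the overlap of ND5 and ND6 then cannot be told apart. Both genes are uncertain at least to that extent, and the cause of the low ND5 values was not tested. How fully each mitochondrial mRNA, ND6 included, was captured as polyadenylated RNA was not tested either. ND4L with ND4 and ATP8 with ATP6 overlap on the same strand, and how reads from the overlaps or from nuclear copies of mitochondrial DNA were assigned is not given in the sources used here. ND5 did not reach the minimum level for testing.

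CYTB, cytochrome b of complex III, was the other gene with an uneven pattern. It stood at 284, 891 and 877 FPKM in Hu, against 28.9, 454 and 300.1 FPKM in Mongolian libraries. Mongolian 1 stood far below every other library, and the remaining values of the breeds overlapped. CYTB had the largest difference of the 54 tested members, 1.92 with a standard error of 0.80 on the log2(FPKM + 1) scale, Hu minus Mongolian (95% confidence interval from 0.22 to 3.63). It did not pass the test over all genes (limma adjusted p = 0.998), and without Mongolian 1 the difference was 0.71.

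Complex IV takes its core subunits from COX1, COX2 and COX3. COX1, which holds the oxygen-reducing site, stood at 233, 476 and 936 FPKM in Hu, against 363, 596 and 214 FPKM in Mongolian libraries. COX2, which receives electrons from cytochrome c, was lower throughout, at 57.3, 124 and 278 FPKM in Hu, against 117, 203 and 71.9 FPKM in Mongolian libraries. COX1 exceeded COX2 by 2.94-fold to 4.07-fold in every library. COX3 averaged 395 ± 151 FPKM in Hu and 363 ± 122.9 FPKM in Mongolian. For each of these genes Hu 3 was the highest library, and the breeds overlapped.

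The mitochondrial subunits of complex V were ATP6, part of the proton channel, and ATP8, a short stalk subunit. ATP6 had the highest mean of the mitochondrial genes, at 230.04, 648 and 950.2 FPKM in Hu, against 406, 559.7 and 215 FPKM in Mongolian libraries. ATP8 stood at 81.2, 427 and 423 FPKM in Hu, against 166, 213 and 103 FPKM in Mongolian libraries. Hu 2 and Hu 3 had more of each than any Mongolian library, and Hu 1 had less than Mongolian 1 and Mongolian 2. The ratio of ATP8 to ATP6 was 0.353, 0.659 and 0.445 in Hu 1, Hu 2 and Hu 3 and 0.409, 0.380 and 0.479 in Mongolian 1, Mongolian 2 and Mongolian 3.

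**Figure D1:**
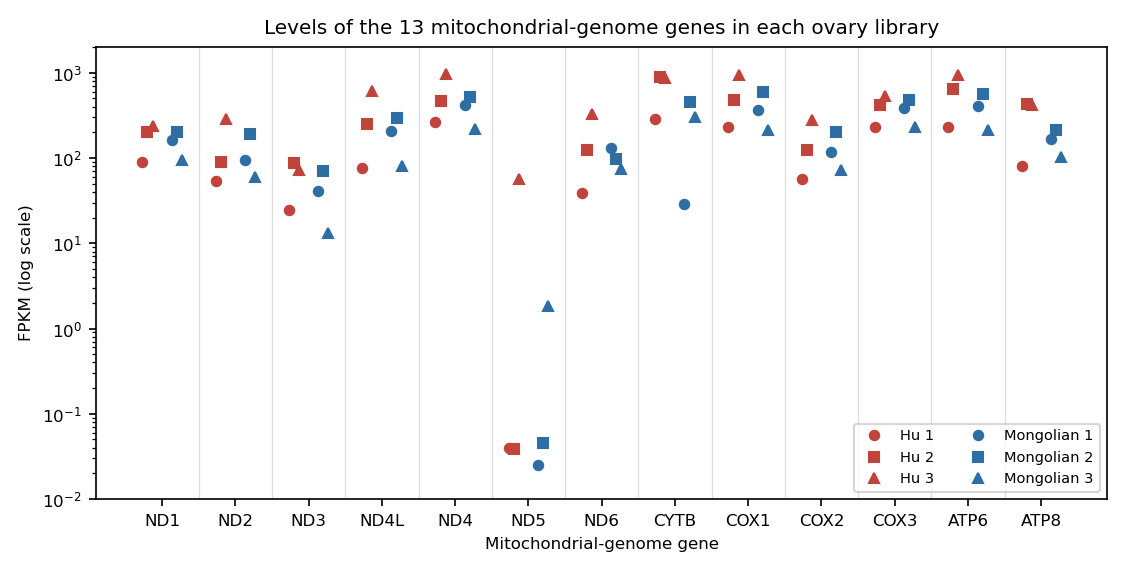
FPKM on a log scale (y axis) for each of the 13 mitochondrial-genome genes (x axis); red points are Hu and blue points Mongolian libraries, with circles, squares and triangles for replicates 1, 2 and 3. Hu 3 is highest in 10 of the 13 genes, CYTB is low in Mongolian 1 (28.9 FPKM), and ND5 is below 0.1 FPKM in 4 libraries.

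Within the mitochondrial set, the proportions between genes were steadier than the total. The total differed 3.92-fold between the highest and the lowest library. The share of ATP6 lay between 12.8% and 16.1% of the summed mitochondrial FPKM, that of COX1 between 11.3% and 15.4% and that of ND4 between 11.2% and 16.8%. The ratio of ND4 to COX1, which are encoded apart from each other, lay between 0.872 and 1.16 in the 6 libraries. The share of CYTB was 17.03%, 21.2% and 13.4% in Hu and 1.15%, 11.7% and 17.9% in Mongolian libraries, and that of ND3 was 1.47%, 2.08% and 1.09% in Hu and 1.62%, 1.80% and 0.776% in Mongolian libraries. Apart from CYTB and ND5, no gene's share differed by more than 2.68-fold between libraries. These shares do not depend on scaling between libraries.

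**Figure D2:**
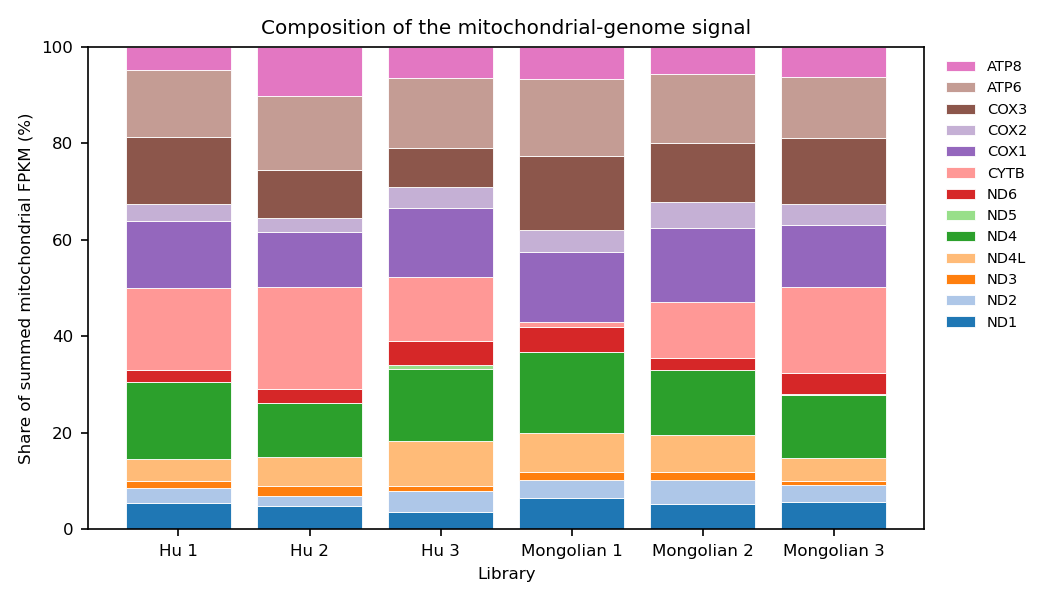
Stacked bars give each mitochondrial-genome gene's share (percent, y axis) of the summed mitochondrial FPKM in each library (x axis, Hu then Mongolian). ATP6 takes between 12.8% and 16.1% in every library, whereas CYTB takes 1.15% in Mongolian 1 and at least 11.7% elsewhere.

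Nuclear members were far less abundant, and how many were listed followed the library. All 49 were above 0 in Hu 3, whereas 18 were listed at 0 in Hu 1 and 16 in Hu 2, against 8, 6 and 10 in Mongolian 1, Mongolian 2 and Mongolian 3. Their summed level was 303, 336 and 924 FPKM in Hu, against 467, 411 and 449 FPKM in Mongolian libraries. Hu 1 and Hu 2 lay below all Mongolian libraries and Hu 3 lay above them, the same order in which the Hu libraries listed genes of any kind. The part that this listing plays in the nuclear values was not tested. As a share of the FPKM outside the pair of dominant assembled genes, nuclear members took 0.365 ± 0.0642% in Hu and 0.365 ± 0.0371% in Mongolian libraries (SD, n = 3 per breed).

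The core subunits of the matrix arm of complex I, where NADH is oxidised, were above 0 in every library, apart from NDUFS7 in Hu 2. NDUFV1, the NADH-binding flavoprotein, stood at 3.86, 11.1 and 14.2 FPKM in Hu, against 12.5, 10.9 and 15.6 FPKM in Mongolian libraries. Hu 1 alone was low, and the other Hu libraries lay within the Mongolian range. NDUFV2, the iron-sulfur partner of NDUFV1, varied widely, at 5.10, 1.44 and 27.5 FPKM in Hu, against 3.62, 12.2 and 7.30 FPKM in Mongolian libraries. NDUFS8, a subunit with a pair of iron-sulfur clusters, stood at 11.4, 11.2 and 10.7 FPKM in Hu, against 11.3, 3.04 and 10.3 FPKM in Mongolian libraries, so that Mongolian 2 alone was low.

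In 2 core subunits the breeds did not overlap, 1 with every Hu library above (1.88% of all genes tested) and 1 with every Hu library below (6.05% of all genes tested). NDUFS3, of the module that binds quinone, stood at 6.14, 5.95 and 9.27 FPKM in Hu, against 3.53, 3.41 and 0.986 FPKM in Mongolian libraries, a log2(FPKM + 1) difference of 1.23 with a standard error of 0.68. NDUFS7, the subunit with the last iron-sulfur cluster before quinone, stood at 3.33, 0 and 3.53 FPKM in Hu, against 4.39, 3.73 and 4.28 FPKM in Mongolian libraries, a difference of -0.93 with a standard error of 0.78. These subunits of the same arm thus lay on opposite sides. Neither passed the test over all genes (limma adjusted p = 0.998 for both).

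Accessory subunits surround the core and stabilise it. NDUFS5, in the intermembrane space, had the highest mean over all libraries, at 69.3, 20.3 and 70.3 FPKM in Hu, against 25.9, 30.9 and 15.02 FPKM in Mongolian libraries. NDUFB9, in the membrane arm, was next by mean, at 12.7, 24.9 and 41.7 FPKM in Hu, against 28.6, 29.9 and 41.0 FPKM in Mongolian libraries. It exceeded NDUFS5 in Hu 2, Mongolian 1 and Mongolian 3. Hu 1 thus had the second-highest NDUFS5 and the lowest NDUFB9. NDUFS4, needed for a stable NADH-oxidising module, averaged 15.5 ± 14.4 FPKM in Hu and 12.1 ± 3.28 FPKM in Mongolian. NDUFA6 stood at 8.51, 0 and 32.4 FPKM in Hu, against 20.6, 15.3 and 4.14 FPKM in Mongolian libraries, and NDUFA10 at 0, 0 and 6.20 FPKM in Hu, against 6.60, 2.91 and 6.81 FPKM in Mongolian libraries. NDUFA10 had the most negative difference of the tested members, -1.67 with a standard error of 0.87, and Hu 3 alone among the Hu libraries had it above 0.

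A pair of membrane-arm accessory subunits had every Hu library above every Mongolian library, as had 1.88% of all genes tested. NDUFA3 stood at 2.70, 2.84 and 5.22 FPKM in Hu, against 0.608, 0.716 and 2.24 FPKM in Mongolian libraries, a log2(FPKM + 1) difference of 1.10 with a standard error of 0.73. NDUFB2 stood at 20.9, 13.6 and 14.9 FPKM in Hu, against 9.0, 7.60 and 12.8 FPKM in Mongolian libraries, a difference of 0.70 with a standard error of 0.54. Hu 1, where many nuclear members were listed at 0, was the highest library for NDUFB2. Neither gene passed the test (limma adjusted p = 0.998 for both).

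The assembly factors of complex I were scarce. All 6 were at 0 in Hu 2 and all 6 above 0 in Hu 3. NDUFAF3, which acts with NDUFAF4 in early assembly, stood at 3.41, 0 and 4.95 FPKM in Hu, against 2.75, 0 and 5.94 FPKM in Mongolian libraries. NDUFAF4 stood at 0, 0 and 3.96 FPKM in Hu, against 2.81, 0.565 and 1.33 FPKM in Mongolian libraries. NDUFAF7, a methyltransferase, reached 2.73 FPKM in Hu 1, NDUFAF1 reached 2.60 FPKM in Hu 3 and NDUFAF5 reached 1.27 FPKM in Hu 3. NDUFA4, first assigned to complex I and now counted with complex IV, stood at 0, 6.54 and 34.2 FPKM in Hu, against 13.7, 12.5 and 3.76 FPKM in Mongolian libraries. Its relative NDUFA4L2, known in other mammals as a target of hypoxia signalling, was above 0 only in Hu 3 (7.77 FPKM) and Mongolian 1 (9.06 FPKM).

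In complex V, the catalytic head, the rotating c ring and most of the peripheral stalk come from nuclear genes. ATP5F1A, the alpha subunit of the head, stood at 17.9, 31.9 and 88.3 FPKM in Hu, against 31.2, 34.6 and 39.2 FPKM in Mongolian libraries. It exceeded its catalytic partner ATP5F1B by 2.56-fold to 6.75-fold per length in every library, although the head holds both subunits in equal number. ATP5F1D, the delta subunit, stood at 8.66, 20.4 and 12.4 FPKM in Hu, against 33.3, 15.1 and 31.7 FPKM in Mongolian libraries, a log2(FPKM + 1) difference of -0.90 with a standard error of 0.55. Hu 2 exceeded Mongolian 2 in ATP5F1D, so the breeds overlapped.

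Of the 3 genes that encode the same mature c subunit, ATP5MC2 was the highest in every library, at 14.7, 48.7 and 56.8 FPKM in Hu, against 52.8, 31.6 and 37.9 FPKM in Mongolian libraries. How reads shared by near-identical genes were divided is not given in the sources used here. ATP5PF, of the peripheral stalk, stood at 0, 22.7 and 104 FPKM in Hu, against 28.6, 18.2 and 20.1 FPKM in Mongolian libraries. Its mean was higher in Hu (42.3 FPKM) than in Mongolian (22.3 FPKM), whereas its log2(FPKM + 1) difference was -0.76, since Hu 1 was at 0. ATP5PB, another stalk subunit, stood at 0, 3.88 and 18.1 FPKM in Hu, against 4.93, 9.05 and 8.02 FPKM in Mongolian libraries. ATP5MK, a small subunit of the dimer interface, stood at 0.112, 6.93 and 0.646 FPKM in Hu, against 0, 9.06 and 9.60 FPKM in Mongolian libraries.

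Of the members, 10 were listed at 0 in at least 3 libraries, all of them nuclear. The highest of these was ATP5IF1, the inhibitor that stops the ATP synthase from running backwards, at 2.85, 0 and 27.6 FPKM in Hu and 0 in all 3 Mongolian libraries. A value of 0 means only that the gene was listed at 0.

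**Figure D3:**
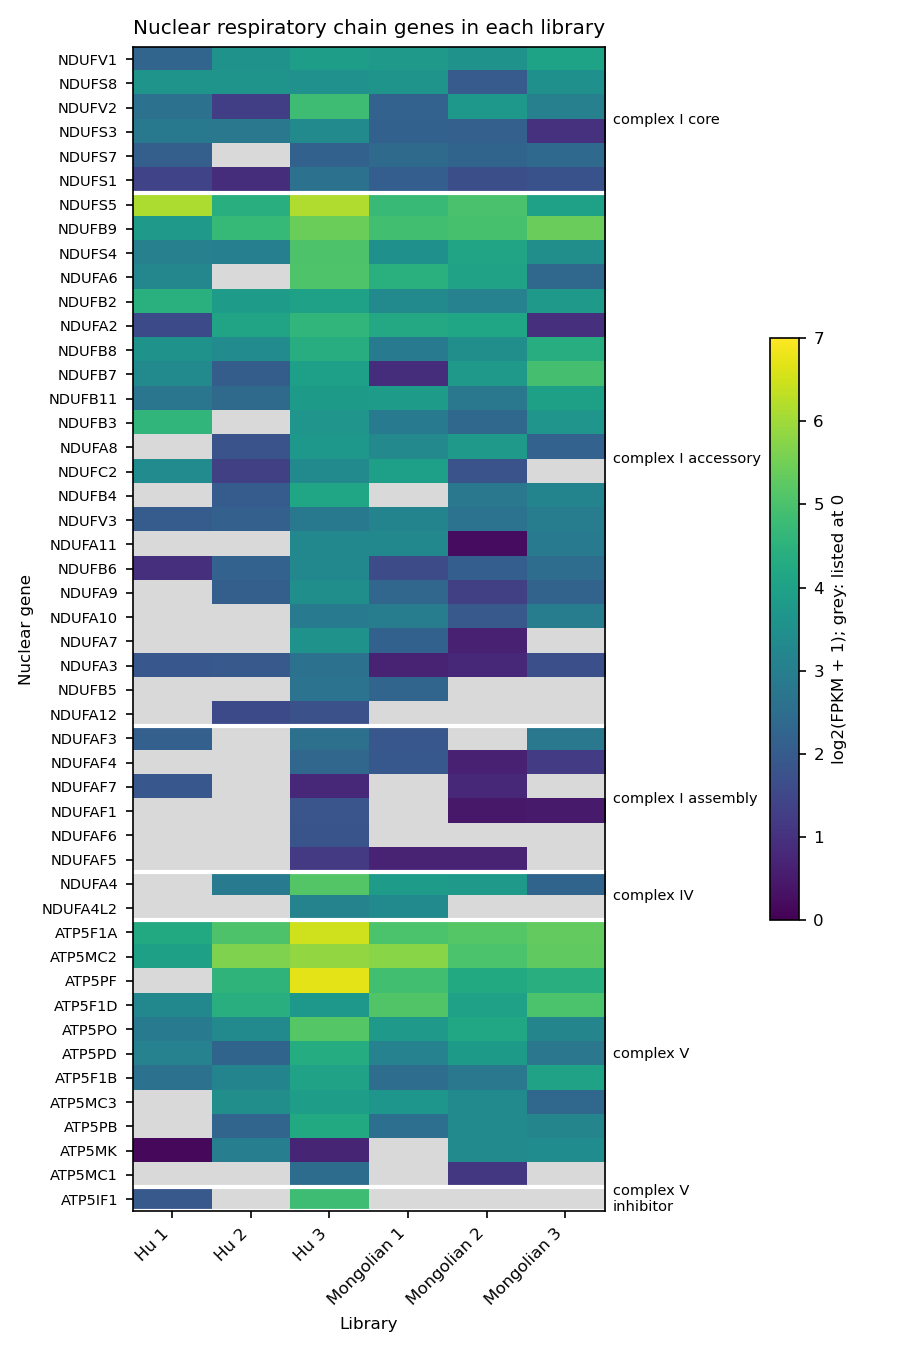
Colour gives log2(FPKM + 1) for 48 of the 49 nuclear genes (rows, grouped by complex and role, highest mean first) in each library (columns, Hu then Mongolian); grey cells are listed at 0. Hu 1 has 18 and Hu 2 has 16 grey cells, Hu 3 has 0, and the Mongolian libraries have 6 to 10.

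The comparison of breeds was made with limma on log2(FPKM + 1) over the 9971 genes that reached 0.5 FPKM in 3 or more libraries, and 54 members entered it, 12 mitochondrial and 42 nuclear. Of the 54, 0 had a Benjamini-Hochberg adjusted p under 0.05 in either direction, as was the case for all genes tested (0%). At an unadjusted p under 0.05 there was 1 member, CYTB, against 3.73% of all genes tested. Every Hu library lay above every Mongolian library in 3 members (NDUFS3, NDUFA3 and NDUFB2), against 1.88% of all genes, and below in 1 member (NDUFS7), against 6.05% of all genes. No mitochondrial gene was among these 4. Weighting libraries by estimated quality, a setting that put the most weight on Hu 2, called 4 of the 54 members (CYTB, NDUFA6, NDUFA10 and NDUFS7), against 6.35% of all genes tested, a share near that of the members. Libraries were also simulated for all genes tested, each gene with its own spread and drawn independently of the others. Genes picked at random from all genes tested, not the members as a set, were changed by 2, up or down, on the log2(FPKM + 1) scale. Values below 0 FPKM were set to 0. The unweighted test called none of these changes, so the lack of calls does not show that the breeds were alike.

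The log2 difference was positive in 12 of 12 mitochondrial genes and in 18 of 42 nuclear genes. Among all genes tested, 32.3% were positive. The mitochondrial genes come from shared long transcripts, so they are not 12 separate observations. With array weights the difference was positive in 10 of 12 mitochondrial and 13 of 42 nuclear genes. Under other scalings it was positive in 11 of 12 mitochondrial genes or more and in 14 to 25 of 42 nuclear genes. COX3 was the exception, with quantile normalization. By role, the difference in the fit reported was positive in 3 of 7 core and 10 of 20 accessory subunits of complex I. In complex V it was positive in 3 of 10 tested subunits. Members on the matrix and membrane arms of complex I divided alike, with 6 of 13 and 7 of 14 positive. The median difference was 0.40 for mitochondrial genes, -0.08 for nuclear genes and -0.28 for all genes tested. Without Hu 3 the mitochondrial median was -0.12 with 4 of 12 genes positive, and the nuclear median was -0.67 with 8 of 42 positive. Without Hu 1 the nuclear median was 0.28, and without Hu 2 it was 0.15. Without Mongolian 3 the mitochondrial median was 0.01 with 7 of 12 genes positive. The median 95% confidence interval of a member's difference reached 1.40 to either side.

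**Figure D4:**
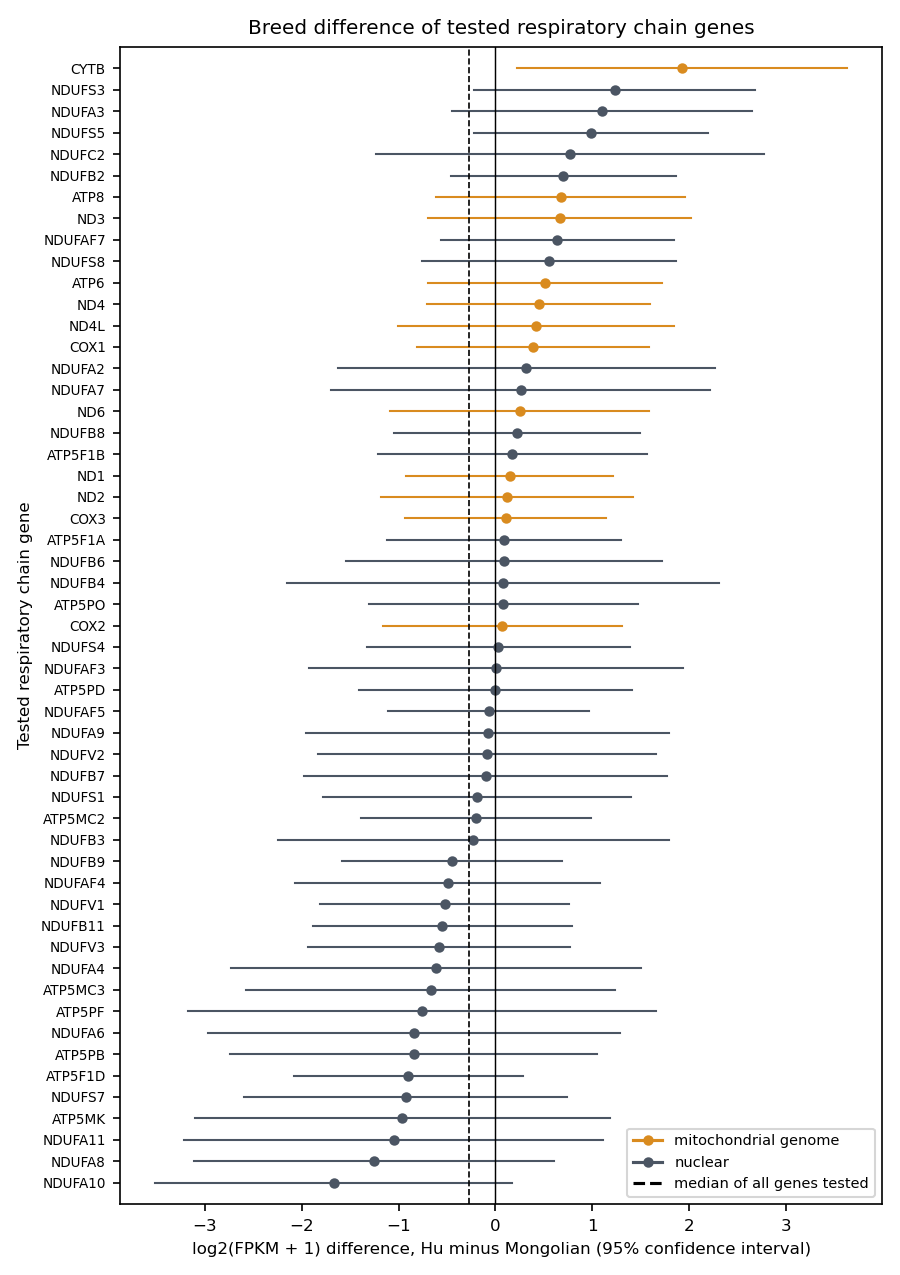
Points give the log2(FPKM + 1) difference, Hu minus Mongolian (x axis), of 53 of the 54 tested members (y axis), with 95% confidence intervals from limma as lines; orange is mitochondrial, grey nuclear, and the dashed line is the median of all genes tested (-0.28). The interval of CYTB (0.22 to 3.63) is the only one that leaves out 0.

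The genomes were then set against each other within each library, which removes a common scaling of a library on the log scale except for the pseudocount. The mean log2(FPKM + 1) of the 12 mitochondrial genes was 6.71, 8.08 and 8.77 in Hu and 7.31, 8.06 and 6.76 in Mongolian libraries. That of the 42 nuclear genes was 2.10, 2.32 and 3.85 in Hu and 2.95, 2.86 and 2.92 in Mongolian libraries. The nuclear mean thus spread across Hu libraries (SD 0.95) and was nearly constant across Mongolian libraries (SD 0.05), as was the case for the mean of all genes tested (SD 0.72 in Hu and 0.07 in Mongolian). The mitochondrial mean varied in both breeds (SD 1.04 in Hu and 0.65 in Mongolian).

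Mitochondrial genes exceeded nuclear ones by 4.62, 5.76 and 4.92 on this scale in Hu and by 4.36, 5.20 and 3.85 in Mongolian libraries. The gap averaged 5.10 ± 0.59 in Hu and 4.47 ± 0.68 in Mongolian libraries (SD, n = 3 per breed), 0.63 more in Hu, which is no larger than the pooled SD within breeds (0.64), and the breeds overlapped. Hu 2 had the widest gap and Mongolian 3 the narrowest. As a ratio of summed FPKM, mitochondrial genes stood at 5.51, 12.5 and 7.09 times the nuclear genes in Hu and at 5.40, 9.41 and 3.74 times in Mongolian libraries. Hu 3, with the highest level of both genomes, was therefore intermediate in their ratio.

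**Figure D5:**
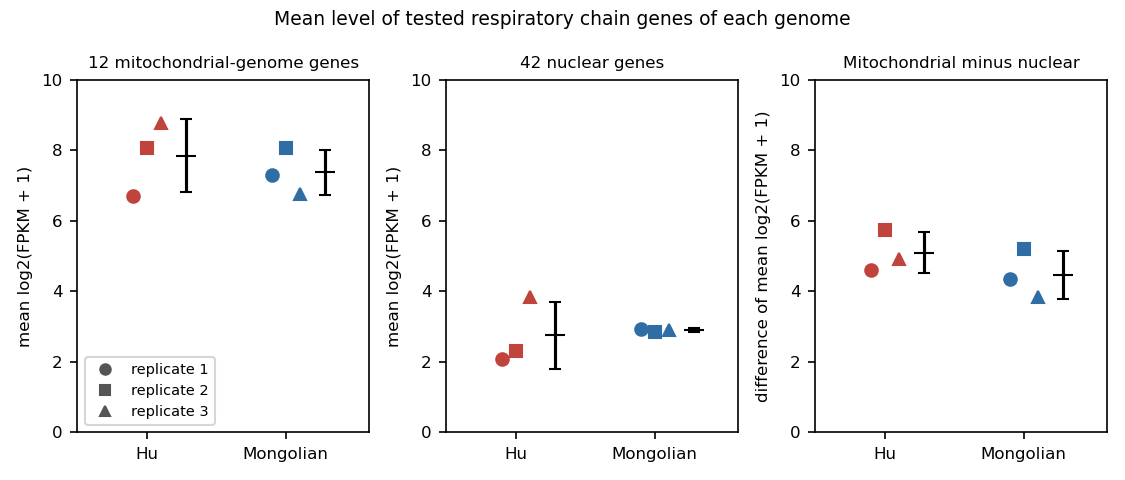
Mean log2(FPKM + 1) per library (y axes) of the 12 mitochondrial and 42 nuclear genes tested and their difference, with Hu left of Mongolian; circles, squares and triangles are replicates 1, 2 and 3, and bars give mean ± SD. Mongolian libraries are nearly equal in the nuclear panel, and the breeds overlap in the difference (4.62 to 5.76 in Hu, 3.85 to 5.20 in Mongolian).

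Other genes of respiration were examined by list, and 0 of their tested members passed the unweighted test over all genes (0% of all genes did). For the counts by list, 32.3% of all genes tested had a positive difference. Complex II, which is wholly nuclear, had 4 of 8 genes listed and 1 of 4 with a positive difference. SDHA, its flavoprotein, stood at 1.67, 4.20 and 11.3 FPKM in Hu, against 8.58, 8.99 and 14.8 FPKM in Mongolian libraries. The assembly factors SDHAF2 and SDHAF1 had log2(FPKM + 1) differences of -0.42 and 0.033. SDHC, a membrane anchor, was at 0, 1.90 and 9.85 FPKM in Hu, against 8.86, 3.29 and 1.41 FPKM in Mongolian libraries. Assembly factors of complex I outside the NDUF symbols had 1 of 6 tested genes positive. ACAD9 stood at 1.42, 0.497 and 1.96 FPKM in Hu, against 6.002, 2.71 and 6.20 FPKM in Mongolian libraries. It was the 1 gene of these 6 with every Hu library below every Mongolian library, as had 6.05% of all genes tested. TIMMDC1, DMAC2 and ECSIT were at 0 in Hu 1 and Hu 2 and had differences of -1.21, -0.96 and -0.80. Of the assembly factors of complexes III to V, 2 were tested, and TTC19 had a difference of -0.62. ATPAF2, which helps to build the catalytic head of complex V, was at 0, 0 and 2.51 FPKM in Hu, against 4.82, 1.26 and 5.78 FPKM in Mongolian libraries.

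Genes that copy and transcribe mitochondrial DNA had a positive difference in 2 of 13 tested members. Their median was -0.57, lower than that of all genes (-0.28). The 18 listed genes summed to 14.1, 20.0 and 72.6 FPKM in Hu, against 48.5, 32.2 and 65.1 FPKM in Mongolian libraries. Hu 1 and Hu 2 thus lay below all Mongolian libraries and Hu 3 above them. The part that values at 0 play in this median was not tested. POLRMT, the mitochondrial RNA polymerase, was at 0, 0 and 2.001 FPKM in Hu, against 4.27, 0.446 and 8.36 FPKM in Mongolian libraries. MTERF4, a factor of the mitochondrial ribosome and transcription, was at 2.53, 0 and 11.3 FPKM in Hu, against 6.80, 5.63 and 14.3 FPKM in Mongolian libraries. TOP3A, a topoisomerase, and RNASEH1, a ribonuclease, had differences of -1.29 and -1.20, and RNASEH1 was highest in Hu 3 (14.1 FPKM).

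Genes that process or degrade mitochondrial RNA had a positive difference in 3 of 15 tested members, with a median of -0.52. The 16 listed genes summed to 32.4, 60.5 and 164 FPKM in Hu, against 84.5, 73.1 and 68.8 FPKM in Mongolian libraries. REXO2, the exonuclease that clears the shortest RNA fragments in mitochondria, was among those with a positive difference. It alone in the list had an unadjusted p under 0.05, as had 3.73% of all genes tested. It stood at 18.7, 19.98 and 22.7 FPKM in Hu, against 9.91, 2.86 and 4.13 FPKM in Mongolian libraries, a log2(FPKM + 1) difference of 1.83 with a standard error of 0.59. All 3 Hu libraries lay above all 3 Mongolian libraries, as in 1.88% of all genes tested. REXO2 did not pass the test over all genes (limma adjusted p = 0.998). SUPV3L1, the helicase of the mitochondrial degradosome, stood at 0, 0 and 2.94 FPKM in Hu, against 3.46, 3.38 and 0.907 FPKM in Mongolian libraries. MTPAP, the mitochondrial poly(A) polymerase, and ANGEL2 had differences of -1.04 and -1.06.

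Nuclear regulators of respiratory genes had a positive difference in 3 of 15 tested members, with a median of -0.28, close to that of all genes. GABPB2 stood at 0, 2.37 and 4.09 FPKM in Hu, against 0, 0.864 and 0 FPKM in Mongolian libraries. PPARGC1B, a coactivator of mitochondrial biogenesis, stood at 0, 0 and 0.806 FPKM in Hu, against 0.658, 0 and 10.4 FPKM in Mongolian libraries. CREB1 and PPARA, both transcription factors, had differences of -0.95 and -0.98. Carriers and pores of the inner and outer mitochondrial membranes had a positive difference in 5 of 7 tested members, with a median of 0.19. SLC25A4, an exchanger of ADP and ATP, stood at 0.469, 9.90 and 14.2 FPKM in Hu, against 11.5, 7.76 and 18.9 FPKM in Mongolian libraries. VDAC1, a pore of the outer membrane, stood at 5.23, 8.44 and 21.5 FPKM in Hu, against 7.25, 7.60 and 5.91 FPKM in Mongolian libraries. SLC25A5, a second such exchanger, had a difference of -0.52. UCP2 was highest in Hu 3 (14.7 FPKM) and next in Mongolian 2 (12.3 FPKM). Cytochrome c, the soluble carrier between complexes III and IV, was among 3 listed genes that fell short of the level for testing, and its gene CYCS had 0, 12.03 and 5.24 FPKM in Hu libraries, with 0 listed in all 3 Mongolian libraries. CYCS was chosen after its values were seen.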

How the data were processed

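Values were taken from a gene table of FPKM that the authors deposited, with a column per library; a deposited lncRNA table held no member and was not used here. Per the labels' protocols, RNA was isolated with a column kit and libraries were made with a SMARTer mRNA kit. The aligner, counting tool, genome build and strand handling are not stated in any source used here, and the table holds no coordinates. Low values showed no steps of whole reads (at most 0.566% of genes under 2 FPKM shared a ratio between a pair of libraries within a bin 0.2% wide), so depth is unknown.

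Groups and replicate numbers came from the sample titles and columns from the sample descriptions. Genes that reached 0.5 FPKM in 3 or more libraries were fitted on log2(FPKM + 1) with limma 3.58.1 in R 4.3.3 (eBayes with a trend, breed as the only factor, two-sided), with p-values adjusted over all 9971 genes after Benjamini and Hochberg and called below 0.05. Log2 differences understate the change of scarce genes. The code was tested on simulated data with known changes. With the spread held below that of these libraries, it recovered most of the changes in genes with a mean log2(FPKM + 1) above 3. At the genes' own spread it recovered none. All 62 symbols were found in a RefSeq gene table of another sheep assembly (ARS-UI_Ramb_v3.0), which was used for names only. Members and lists were chosen with earlier results of these data known, so no p was computed over a list.

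Named genes were all mitochondrial members; in each nuclear class the 4 highest by mean and the 3 with the smallest p; members without overlap between breeds; the highest member listed at 0 in at least 3 libraries; and up to 4 genes per other list by smallest p. Alternatives were other pseudocounts and filters, 4 scalings, array weights, a replicate block and leaving out libraries. Of the members these rules name, 1 is not reported here and is left out of the plots, though it counts in every total.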

Additional observations from a re-analysis of the deposited data

How the results depend on the processing

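The count of members past the test stayed at 0 in all settings except array weights. That setting called 4 members and 633 of all genes, 75 higher and 558 lower in Hu. Genes called there included ATPAF2 of the other lists (log2 difference -1.98, limma adjusted p = 0.046). For all genes, leaving out a library gave between 0 and 4 calls (2 without Hu 2 and 4 without Hu 3), and leaving out Hu 1 and Hu 3 together, chosen after seeing the data, gave 6 calls with 0 members. The mitochondrial minus nuclear difference between breeds was positive throughout, between 0.30 and 0.99 when a library was left out. It was 1.30 with a pseudocount of 0.01 FPKM and 1.29 without Hu 1 and Hu 3. With quantile normalization it was 0.38, and as a log2 ratio of summed FPKM it was 0.46. The nuclear median was -0.02 with median-of-ratios scaling (21 of 42 positive), 0.09 with quantile normalization, 0.15 with a common sum and -0.19 with a common sum without the 2 most abundant assembled genes (14 positive), while the median of all genes was -0.23, 0.02, -0.09 and -0.37 in that order. The mitochondrial median was 0.57, 0.32, 0.72 and 0.35 in the same order.

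Single log2 differences, none of them past the test in the fit reported, turned sign as follows, and the cause was not tested. With array weights they were -0.071 for ATP5F1A, 0.083 for ATP5MC2, 0.78 for ATP5MK, -0.11 for COX2, -0.29 for ND2, -1.02 for NDUFAF3, -0.051 for NDUFAF7, -0.57 for NDUFS4, -0.028 for NDUFS5, -0.92 for SDHAF1 and 0.066 for SDHAF2. With a common sum they were 0.11 for ATP5MC2 and 0.19 for NDUFV2, and without the 2 assembled genes -0.11 for NDUFAF3, -0.033 for NDUFS4 and -0.18 for SDHAF1. Median-of-ratios scaling gave 0.017 for NDUFV2 and -0.13 for SDHAF1. Quantile normalization gave -0.060 for COX3, 0.011 for NDUFAF4, 0.26 for NDUFAF5 and 0.069 for NDUFV2. SDHAF1 was -0.71 with a pseudocount of 0.1 FPKM and -1.77 with 0.01 FPKM. Leaving out a library turned the sign of 24 of 62 named genes compared, whose differences then ranged as follows: ANGEL2 from -2.23 to 0.012, ATP5F1A from -0.52 to 0.60, ATP5MC2 from -0.55 to 0.39, ATP5PB from -1.88 to 0.25, ATP5PF from -2.24 to 1.12, COX1 from -0.11 to 0.89, COX2 from -0.50 to 0.63, COX3 from -0.19 to 0.44, ND1 from -0.16 to 0.57, ND2 from -0.56 to 0.64, ND4 from -0.039 to 0.89, ND4L from -0.28 to 1.20, ND6 from -0.48 to 1.03, NDUFA4 from -1.84 to 0.73, NDUFA6 from -1.98 to 0.55, NDUFAF3 from -0.78 to 0.79, NDUFAF5 from -0.46 to 0.13, NDUFS4 from -0.64 to 0.37, NDUFV2 from -1.05 to 0.73, SDHAF1 from -0.87 to 0.49, SDHAF2 from -0.90 to 0.20, SDHC from -1.46 to 0.26, SLC25A5 from -1.44 to 0.50, VDAC1 from -0.040 to 0.89.

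Samples of the same number did not deviate together (correlations of -0.013, -0.030 and -0.180). These values showed no pairing by number, but with so few libraries they cannot exclude one. A fit with the replicate block gave 0 calls, with 397 genes at an unadjusted p under 0.05, against 372 without the block. Depth is unknown, so values at 0 carry no limit.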

Other observations

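A pair of assembled genes without a symbol, singled out after their values were seen, ordered the libraries nearly as the mitochondrial mRNAs did. Ovis_arie_newGene_17487 stood at 2280, 6046 and 10046 FPKM in Hu 1, Hu 2 and Hu 3 and at 5347, 7677 and 3644 FPKM in Mongolian 1, Mongolian 2 and Mongolian 3. That is between 1.37 and 2.17 times the summed FPKM of the 13 mitochondrial genes in each library. Ovis_arie_newGene_5561 stood between 1.30 and 1.997 times that sum. The 2 most abundant assembled genes varied far more against it, between 13.1 and 142 times and between 23.5 and 127 times. What these assembled genes encode is not annotated in the table, and it was not tested.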
